A study of Mus musculus with 203 samples.

Results

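Integrins are cell-surface receptors built from 1 alpha and 1 beta chain, and 10 genes that encode such chains in leukocytes were followed here in the mouse macrophage cell line RAW264.7. The members are the alpha genes Itgal, Itgam, Itgax, Itga4, Itga5, Itga6 and Itgav and the beta genes Itgb1, Itgb2 and Itgb7. The list was drawn up with earlier results of these data known. Its members were taken by gene symbol, and all 10 were found among the 25094 genes of the table of RAW264.7 cells. All 10 were also among the 16478 genes of the table of bone marrow-derived macrophages (BMDMs) of the same study, which holds comparisons made by the authors and whose values are not used here. The study asked how the corepressor subunit GPS2 and the histone demethylase KDM1A act on the response of macrophages to IL4, a type 2 cytokine. RAW264.7 cells, which come from BALB/c mice by their label, carried a lentiviral short hairpin RNA against GFP (shGFP, the control) or against Kdm1a (shKDM1A). Both lines were kept without IL4 (control) or given IL4 (20 ng/ml, 6 h). Each of the 4 resulting groups had 4 libraries. Both lines had been transduced and selected with puromycin, and 1 hairpin was used per target, so hairpin and line cannot be told apart from the loss of Kdm1a. The protocol text of the RNA-seq names BMDMs, whereas the source name of these 16 libraries gives the RAW line, which is followed. The study's methods speak of biological replicates for its experiments in general, but the labels do not tie these libraries to separate cultures, so the p-values measure the spread between these libraries, which may be partly technical.

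As background, integrins hold cells to other cells and to the extracellular matrix and signal in both directions across the membrane. Itgal, Itgam and Itgax encode the alpha chains that pair with the beta 2 chain (Itgb2) and form LFA-1, Mac-1 (complement receptor 3) and complement receptor 4, which bind ICAMs, complement fragments and fibrinogen. Itga4 pairs with Itgb1 into VLA-4, which binds VCAM-1 and fibronectin, and with Itgb7 into the receptor for the gut addressin MAdCAM-1. Itga5 with Itgb1 binds fibronectin, Itga6 with Itgb1 binds laminins, and Itgav pairs with several beta chains and binds ligands such as vitronectin, fibronectin and osteopontin.

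The promoters of 4 members are shown because these genes gave the largest changes (Itga4, Itgav) or are neighbours that moved in opposite directions (Itgam, Itgax). Each sequence runs 5′ to 3′ along the gene from 250 bases before the start to 50 bases into the gene, from RefSeq on GRCm38.p6. RefSeq promoters were matched for 7 of the 10 members. Capitals mark the motifs GAGGAA (the PU.1 core), TTCNNNNGAA (a STAT dimer motif), TGANTCA (AP-1) and GGGCGG (GC box), searched on both strands. No motif of the 4 overlapped another in these windows.
Itga4, chr2:79255176-79255475, plus strand: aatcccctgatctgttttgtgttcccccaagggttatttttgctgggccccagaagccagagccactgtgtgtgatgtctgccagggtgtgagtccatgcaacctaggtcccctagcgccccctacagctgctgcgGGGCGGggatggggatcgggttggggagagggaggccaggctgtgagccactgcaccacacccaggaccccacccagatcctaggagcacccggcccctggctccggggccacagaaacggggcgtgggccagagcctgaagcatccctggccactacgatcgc
Itgav, chr2:83724147-83724446, plus strand: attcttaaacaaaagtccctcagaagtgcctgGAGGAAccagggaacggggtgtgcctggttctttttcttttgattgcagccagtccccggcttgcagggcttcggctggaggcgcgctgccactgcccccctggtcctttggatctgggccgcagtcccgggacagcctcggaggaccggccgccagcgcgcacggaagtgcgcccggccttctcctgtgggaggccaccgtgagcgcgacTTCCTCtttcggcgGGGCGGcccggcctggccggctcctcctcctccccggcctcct
Itgam, chr7:128062390-128062689, plus strand: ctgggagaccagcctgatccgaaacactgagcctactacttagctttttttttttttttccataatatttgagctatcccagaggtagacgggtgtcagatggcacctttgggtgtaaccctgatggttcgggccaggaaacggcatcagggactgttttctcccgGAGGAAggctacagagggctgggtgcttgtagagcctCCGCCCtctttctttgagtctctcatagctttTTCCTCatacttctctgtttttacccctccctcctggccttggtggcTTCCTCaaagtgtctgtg
Itgax, chr7:128129300-128129599, plus strand: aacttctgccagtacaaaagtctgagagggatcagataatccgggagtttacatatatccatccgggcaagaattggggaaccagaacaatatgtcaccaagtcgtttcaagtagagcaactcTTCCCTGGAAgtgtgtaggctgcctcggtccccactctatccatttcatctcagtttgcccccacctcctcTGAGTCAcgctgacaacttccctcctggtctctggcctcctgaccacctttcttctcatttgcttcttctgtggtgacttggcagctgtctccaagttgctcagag
The PU.1 core was in 5 of the 7 member promoters and in 28.3% of the 32851 promoters of the table. Itgam held 3 copies, which begin at offsets -84, -15 and 32 from the gene start. Itgav held 2, at -218 and -7. The STAT dimer motif was in 1 of the 7 promoters and in 6.95% of all promoters, and the copy in Itgax begins at -127. Itgax also held the AP-1 motif at -56, which was in 7.81% of all promoters. The GC box was in 5 of the 7 and in 35.7% of all, among them the copy at -114 in Itga4. These are matches of letters in 300-base windows, not sites shown to be bound.

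In the mm9 genome, the build of the table, Itgal lies at chr7:134439774-134478651, Itgam at chr7:135206154-135262005 and Itgax at chr7:135273064-135294171, all on the plus strand. Itgam and Itgax are neighbours with 11058 bases between them, and Itgal ends 727502 bases before Itgam. Chromosome 2 holds Itga6 (71624996 to 71696484), Itga4 (79095583 to 79173271) and Itgav (83564554 to 83647074), and chromosome 15 holds Itgb7 (102046426 to 102062366) and Itga5 (103174718 to 103197222) on the minus strand. Itgb1 lies on chromosome 8 (131209554 to 131257479) and Itgb2 on chromosome 10 (76993115 to 77028453). Counting was done on both strands, and exons of Itga4 share 1124 bases with exons of Cerkl on the opposite strand, so their reads cannot be told apart there. Cerkl had a mean log2 value of 8.34 over the 16 libraries, far under that of Itga4. Exons of Itgav share 634 bases with Gm13684 on the opposite strand, a gene that is not in the table. The other 8 members share no exon base with another gene of the mm9 annotation. Itgax shares 385 of its 3997 words of 50 bases with its paralog Itgad, which had group means of at most -0.32 (log2). Itgam shares 28 of its 6571 words with Rpl35 and Gm2000, and Itga4 shares 4 of 9840 with Glrx2. Rpl35, a ribosomal protein gene, was 13.50 to 13.67 (log2) over the libraries, above Itgam, and Glrx2 was 8.74 to 9.03, while Gm2000 is not in the table. The part of these shared stretches in the values was not tested.

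Values are log2-scale normalised expression as the authors deposited it, in which 1 unit is nominally a 2-fold difference. They are moderated for low counts, which limits the folds, levels and ratios of low genes. The 16 libraries held 17554721 to 27782568 tags, and no pair of libraries was identical. Kdm1a itself, the target of the hairpin, was 11.18 ± 0.04 (SD, n = 4) in shGFP control and 10.30 ± 0.05 in shKDM1A control, a fold of 0.542 (limma adjusted p = 5.6e-13). With IL4 the fold was 0.580 (adjusted p = 2.2e-12). The libraries held macrophage RNA by the markers chosen: 11 of 13 macrophage markers were tested, among them Csf1r with group means of 14.98 to 15.47, while Mertk and Cd163 had group means of 0 or below. Markers of T and NK cells and of B cells were not tested because all 9 found in the table were at 0.5 or lower in every library. Of the dendritic cell markers Flt3 was at that floor and Zbtb46 had group means of 4.10 to 4.14. Of the neutrophil markers 5 of 6 were at the floor, as were 4 of 5 fibroblast and 3 of 6 endothelial and epithelial markers, and the summed log2 level of no such list ranged over more than 0.123 across the 16 libraries. Among shKDM1A IL4 libraries, replicates 2 and 4 deviated together from the group mean (r = 0.177 across genes) and apart from replicates 1 and 3 (r = 0.0327 between those). The median absolute deviation of a library from its group mean was 0.0302 to 0.0325 (log2) in that group and 0.0220 to 0.0298 in the others. Values without either pair are given beside the results that these libraries move most.

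Levels were compared between members after division by transcript length. In shGFP control cells Itga4 had the highest level per kilobase, 3280 ± 262 normalised units (SD, n = 4). Itgb2 followed at 1850 ± 58.5 and Itgb1 at 1065 ± 19.5, so the chains shared by many receptors were the next most abundant. Itgam at 522 ± 13.9 and Itga5 at 514 ± 17.4 overlapped between libraries and were not separated in that order. Itgav stood at 302 ± 19.2. A gap then led to Itgb7 at 74.4 ± 2.17, Itgal at 61.5 ± 2.70, Itga6 at 33.9 ± 1.26 and Itgax at 25.7 ± 1.29. Every other pair of neighbours in this order was separated between all libraries of the group. Among the 12905 genes tested, the log2 values (not per length) of Itga4 ranked at percentile 99.7 and those of Itgax at percentile 25.2.

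**Figure D1:**
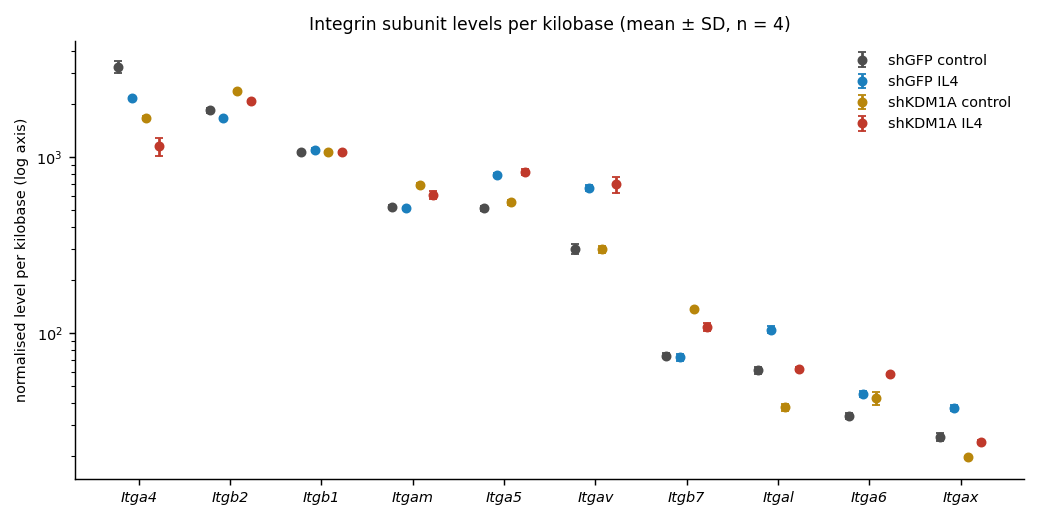
Level per kilobase of each integrin gene (vertical log axis, normalised units, mean ± SD over 4 libraries) in the 4 groups, ordered by the shGFP control level. Itga4 ranges from 3280 in shGFP control to 1151 in shKDM1A IL4, whereas Itgb1 stays between 1065 and 1102.

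The order changed with the groups. In both shKDM1A groups Itgb2 stood first, at 2375 ± 51.0 without and 2083 ± 35.6 with IL4, and Itga4 second, at 1679 ± 46.2 and 1151 ± 139. In shKDM1A IL4 cells Itga4 overlapped Itgb1 (1065 ± 21.9) between libraries. Itgav, at rank 6 in both groups without IL4, stood at rank 5 in both IL4 groups (666 ± 26.1 and 701 ± 73.0) and stood above Itgam there, although in shKDM1A IL4 cells the libraries of Itgav and Itgam overlapped. Itgax was lowest in all 4 groups. This order depends on the division by length: without it Itga4 stood first and Itgb2 second in all 4 groups, and Itgav stood at rank 3 in both IL4 groups, above Itgb1 at rank 4.

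IL4 shifted the alpha chains in shGFP cells. It raised Itgav, Itgal, Itga5, Itgax and Itga6, lowered Itga4 and Itgb2, and Itgam, Itgb1 and Itgb7 did not pass the test. That made 5 of 10 members higher, where 13.1% of all 12905 genes were called higher at an adjusted p under 0.05, and 2 of 10 lower, where 13.7% of all were. The median absolute log2 fold change was 0.48 over the members and 0.05 over all genes tested. As the members were chosen with earlier results known, these shares and medians describe them and test nothing about integrins as a group. All genes tested also include low ones, since 10676 of the 12905 passed a stricter filter at a value of 5. The tests were moderated tests in limma on 1 model of the 4 groups with Benjamini-Hochberg adjustment over all genes. As these are bulk samples, fewer cells with a transcript and less of it per cell cannot be told apart.

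**Figure D2:**
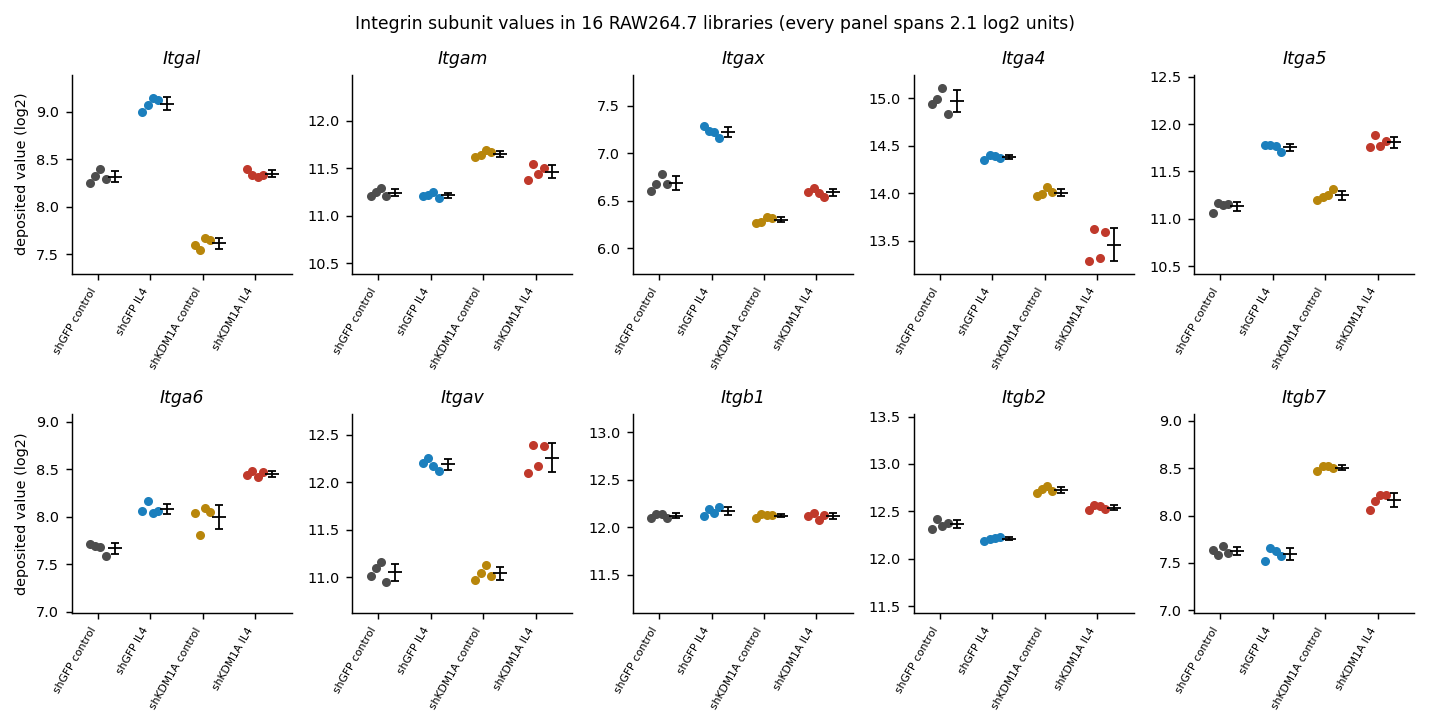
Deposited log2 values (vertical axis) of the 10 integrin genes in each of the 16 libraries by group; points are libraries and bars are mean ± SD of 4, and every panel spans 2.1 log2 units. Itgav separates the groups by IL4, and Itgb1 stays flat. At the same IL4 state, Itgam, Itgb2 and Itgb7 lie higher and Itgal, Itgax and Itga4 lower in shKDM1A than in shGFP cells.

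Among the partners of beta 2, Itgal was 8.25, 8.33, 8.40 and 8.29 in the shGFP control libraries and 9.00, 9.07, 9.15 and 9.13 with IL4. The libraries of these groups did not overlap, and the rise was 1.70-fold (log2 0.77 ± 0.04 SE, adjusted p = 1.8e-10). Itgax was 6.61, 6.68, 6.78 and 6.68 without and 7.29, 7.23, 7.22 and 7.16 with IL4, all 4 treated libraries above the control ones, a fold of 1.45 (adjusted p = 3.9e-09). Itgam was 11.21, 11.26, 11.29 and 11.21 without and 11.21, 11.21, 11.25 and 11.19 with IL4. These values overlapped, and the log2 fold change of -0.03 (95% interval -0.09 to 0.04, adjusted p = 0.62) was not called.

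Of Itga5, Itga6 and Itgav, Itgav moved most. It was 11.01, 11.09, 11.16 and 10.95 in shGFP control and 12.21, 12.26, 12.17 and 12.12 in shGFP IL4 libraries, a 2.20-fold rise (log2 1.14 ± 0.06 SE, adjusted p = 5.9e-10). Its absolute change stood at percentile 99.9 of all genes tested. Itga5, the fibronectin receptor alpha chain, rose 1.54-fold from 11.06 to 11.17 in control libraries to 11.70 to 11.77 in treated ones (adjusted p = 3.7e-10). Itga6, the laminin receptor alpha chain, rose 1.33-fold from 7.59 to 7.71 up to 8.04 to 8.17 (adjusted p = 6.8e-06). The groups of Itgav, Itga5 and Itga6 were each fully separated.

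Itga4 went the other way. It was 14.94, 14.99, 15.11 and 14.84 in shGFP control and 14.35, 14.40, 14.39 and 14.37 in shGFP IL4 libraries, a fold of 0.664 (log2 -0.59 ± 0.07 SE, adjusted p = 4.8e-06), and every treated library lay below every control library. Of the beta chains, Itgb2 fell to a fold of 0.900, from 12.32 to 12.42 without IL4 to 12.19 to 12.23 with it (adjusted p = 0.00012). Itgb1, the most widely shared beta chain, was 12.09 to 12.14 without and 12.12 to 12.21 with IL4 and had a log2 fold change of 0.05 (95% interval 0.00 to 0.10, adjusted p = 0.14). Itgb7 had one of -0.03 (-0.11 to 0.05, adjusted p = 0.61).

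In shKDM1A cells IL4 raised the same 5 alpha genes by name, Itgav 2.33-fold, Itgal 1.66-fold, Itga5 1.48-fold, Itga6 1.37-fold and Itgax 1.22-fold, with adjusted p-values from 3.3e-10 for Itgav to 7.7e-06 for Itgax. It lowered 4 members: Itga4 to a fold of 0.682 (adjusted p = 1.1e-05), Itgb7 to 0.788 (2.3e-06), Itgb2 to 0.877 (1.4e-05) and Itgam to 0.879 (0.00028). Of all genes, 13.6% were called higher and 13.5% lower in this comparison. Itgb1 was not called, at a log2 fold change of 0.00 (95% interval -0.05 to 0.05). Without shKDM1A IL4 replicates 2 and 4 or without 1 and 3, 9 members were still called, beside 3863 and 2774 of all genes. Itga4 depended most on these libraries: its values were 13.97, 13.99, 14.06 and 14.01 without and 13.29, 13.62, 13.32 and 13.59 with IL4, and the log2 fold change was -0.70 without replicates 2 and 4 and -0.40 without 1 and 3. Itgam was -0.24 (adjusted p = 3.6e-05) and -0.13 (0.0054) in the same fits, and Itgav 1.09 and 1.35.

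**Figure D3:**
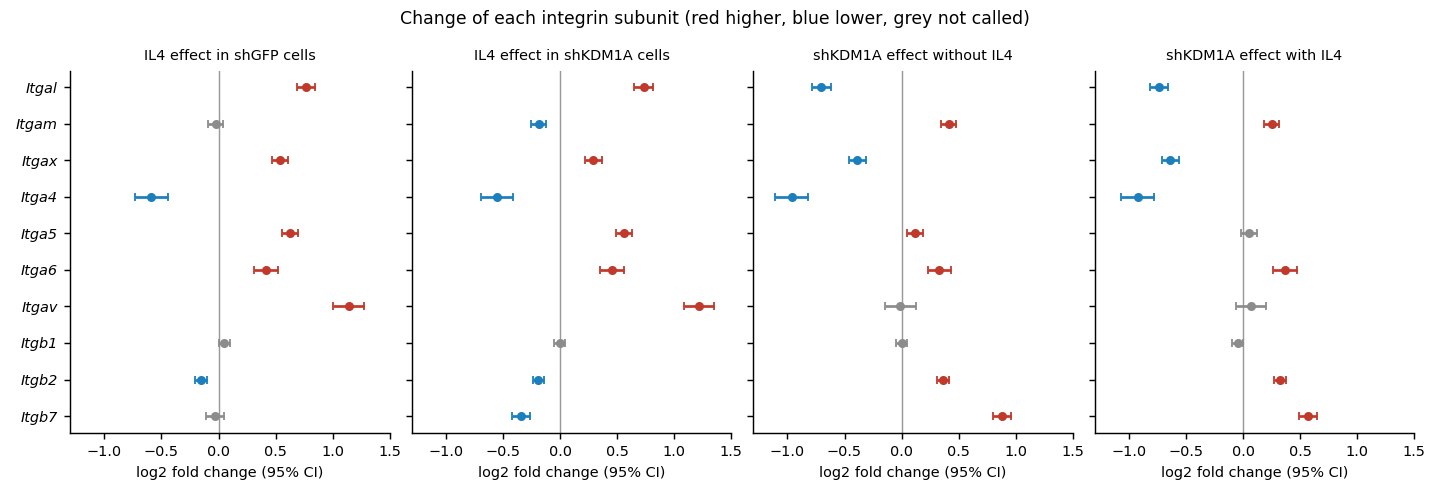
Log2 fold change (horizontal axis, point) with its 95% confidence interval (bar) of each integrin gene in the 4 comparisons of 2 groups; red points were called higher, blue lower and grey not called at an adjusted p under 0.05. Itgav stands at 1.14 and 1.22 under IL4 and near 0 under the knockdown, while Itga4 is on the lower side in all 4 panels.

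The knockdown without IL4 split the members by another line. Itgb7, Itgam, Itgb2, Itga6 and Itga5 were higher in shKDM1A than in shGFP control cells, Itga4, Itgal and Itgax were lower, and Itgav and Itgb1 did not pass the test. So 5 of 10 were called higher against 19.7% of all genes, and 3 of 10 lower against 18.4%. The median absolute log2 fold change was 0.38 over the members and 0.06 over all genes, again only as a description of the chosen members.

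Itga4 had the largest fall. Its libraries stood at 14.84 to 15.11 in shGFP control and 13.97 to 14.06 in shKDM1A control cells, a fold of 0.513 (log2 -0.96 ± 0.07 SE, adjusted p = 7.7e-09). Itgb7, its partner in the MAdCAM-1 receptor, rose instead. It was 7.64, 7.59, 7.68 and 7.60 in shGFP control and 8.47, 8.52, 8.52 and 8.50 in shKDM1A control libraries, a 1.84-fold rise (log2 0.88 ± 0.04 SE, adjusted p = 1.3e-11) with no overlap. The ratio of Itga4 to Itgb7 per kilobase was 44.0 ± 2.81 in shGFP control and 12.3 ± 0.236 in shKDM1A control cells (SD, n = 4). The ratio of Itga4 to Itgb1 was 3.08 ± 0.206 and 1.57 ± 0.0379.

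The beta 2 partners divided under the knockdown. Itgal was 7.59, 7.54, 7.67 and 7.65 in shKDM1A control libraries, below all shGFP control ones, a fold of 0.614 (adjusted p = 3.2e-10). Itgax was 6.27, 6.28, 6.33 and 6.32, also below all of them, a fold of 0.764 (adjusted p = 1.4e-07). Itgam, the neighbour of Itgax, was 11.62, 11.64, 11.69 and 11.67 and thus above all shGFP control libraries, a fold of 1.33 (adjusted p = 2.4e-08). The shared chain Itgb2 moved with Itgam, from 12.32 to 12.42 up to 12.69 to 12.77, a fold of 1.28 (adjusted p = 3.3e-09). Itgam exceeded Itgal per kilobase 8.48 ± 0.168-fold in shGFP control and 18.4 ± 0.493-fold in shKDM1A control cells, and exceeded Itgax 20.3 ± 0.598-fold and 35.3 ± 0.184-fold.

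Of the alpha chains other than Itga4 that do not pair with beta 2, Itga6 and Itga5 rose. Itga6 rose 1.26-fold (adjusted p = 4.9e-05), with replicate 2 of shKDM1A control at 7.81 below the other 3 libraries at 8.04 to 8.09. Itga5 rose 1.08-fold (log2 0.11 ± 0.03 SE, adjusted p = 0.012). Itgav had a log2 fold change of -0.01 with a 95% interval of -0.14 to 0.12, and Itgb1 one of 0.00 with an interval of -0.05 to 0.05, and neither was called.

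With IL4 in both lines, 4 members were higher in shKDM1A cells, Itgb7 1.48-fold, Itga6 1.29-fold, Itgb2 1.25-fold and Itgam 1.19-fold, against 20.9% of all genes called higher. Lower were 3, Itga4 at a fold of 0.527, Itgal at 0.599 and Itgax at 0.643, against 19.8% of all genes, and the adjusted p-values of these 7 ran from 1.8e-10 (Itgal) to 1.6e-05 (Itga6). Itga5, Itgav and Itgb1 were not called. The shKDM1A IL4 libraries of Itgav were 12.09, 12.40, 12.17 and 12.38, so that replicates 2 and 4 lay above and 1 and 3 within or below the shGFP IL4 range. Its log2 fold change was 0.07 (95% interval -0.06 to 0.20), -0.06 without replicates 2 and 4 (adjusted p = 0.44) and 0.20 without 1 and 3 (adjusted p = 0.012). That call therefore rests on which libraries are kept. The 7 called members kept their calls in both fits, with Itga4 at -1.07 and -0.77 and Itgam at 0.19 and 0.31.

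The treated knockdown cells were also set beside untreated control cells. Itgal was 8.40, 8.34, 8.31 and 8.34 in shKDM1A IL4 libraries, within the 8.25 to 8.40 of shGFP control libraries. Itgax was 6.59, 6.64, 6.58 and 6.54 against 6.61 to 6.78, so that 3 of the 4 libraries lay below every shGFP control library. This pair of groups differs in both treatment and hairpin and was not tested.

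The response to IL4 differed between the lines for Itgb7 and Itgax, and for Itgam in a call that most fits without 1 library lost. The interaction, the IL4 effect in shKDM1A cells minus that in shGFP cells, was called lower for 3 of the 10, Itgb7, Itgax and Itgam, and higher for none, against 2.57% of all genes lower and 3.56% higher. Itgb7 was 7.52, 7.66, 7.63 and 7.57 in shGFP IL4 and 8.06, 8.16, 8.22 and 8.21 in shKDM1A IL4 libraries. IL4 moved it by -0.03 in shGFP and -0.34 in shKDM1A cells (log2), a difference of -0.31 ± 0.05 SE (adjusted p = 0.0019). For Itgax the effects were 0.54 and 0.29 and the difference -0.25 ± 0.05 SE (adjusted p = 0.0065). For Itgam, with 11.38, 11.54, 11.44 and 11.51 in shKDM1A IL4 libraries, they were -0.03 and -0.19 and the difference -0.16 ± 0.04 SE (adjusted p = 0.043). This call was lost in 12 of 16 fits that left out 1 library and with no filter (adjusted p = 0.11), where 2 members were called.

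The calls of Itgb7 and Itgax did not depend on the libraries that stand apart. Without replicates 2 and 4 of shKDM1A IL4 the differences were -0.33 for Itgb7 (adjusted p = 0.0026) and -0.25 for Itgax (0.0071), and without 1 and 3 they were -0.29 (0.0046) and -0.25 (0.035). Itgam was -0.22 (0.0031) and -0.10 (0.18) and was no longer called in the second case. Over all genes, the interaction was called for 791 genes, 2282 without replicates 2 and 4 and 348 without 1 and 3. Itga4, Itga5, Itga6, Itgal, Itgav, Itgb1 and Itgb2 were not called, with differences of -0.06 to 0.08. The widest interval of these was that of Itga4, from -0.16 to 0.24.

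**Figure D4:**
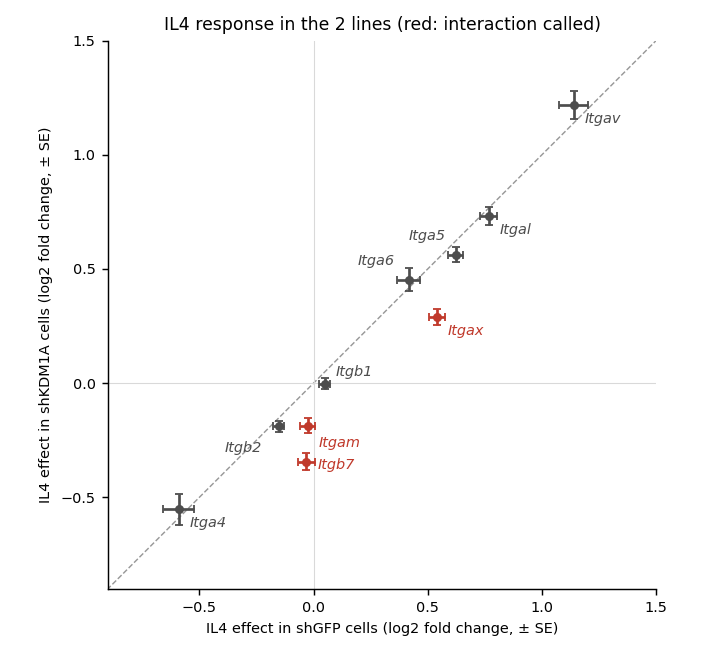
IL4 effect in shKDM1A cells (vertical axis) against that in shGFP cells (horizontal axis), both log2 fold changes ± SE, for the 10 integrin genes; the dashed line marks equal effects and red marks an interaction at an adjusted p under 0.05. Itgb7, Itgax and Itgam lie below the line, by 0.31, 0.25 and 0.16.

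The makeup of the integrin transcripts moved with Itga4. Summed per kilobase over 18 integrin alpha genes of the table, the 7 members held 99.3% ± 0.0603 of the alpha level in shGFP control cells. Itga4 alone held 68.7% ± 1.23 there, 49.8% ± 0.493 with IL4, 49.9% ± 0.306 in shKDM1A control and 33.2% ± 1.44 in shKDM1A IL4 cells (SD, n = 4). In the last group it was 31.9% without replicates 2 and 4 and 34.4% without 1 and 3. IL4 or the knockdown alone thus left Itga4 at a like share. Itgav went from 6.34% ± 0.0546 to 15.3% ± 0.428 with IL4 in shGFP cells and from 8.91% ± 0.242 to 20.2% ± 0.573 in shKDM1A cells. Itga5 went from 10.8% ± 0.693 to 18.1% ± 0.284 and from 16.5% ± 0.441 to 23.7% ± 1.02. Itgam held 10.9% ± 0.420 in shGFP control and 20.6% ± 0.0834 in shKDM1A control cells, although its level rose 1.33-fold. In each of the 4 comparisons of groups the libraries of Itga4's share did not overlap (two-sided exact permutation test, p = 0.0286, the smallest that 4 against 4 allow, adjusted p = 0.0292 over 52 such tests of shares). The shares are of transcripts, not of receptors at the surface.

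**Figure D5:**
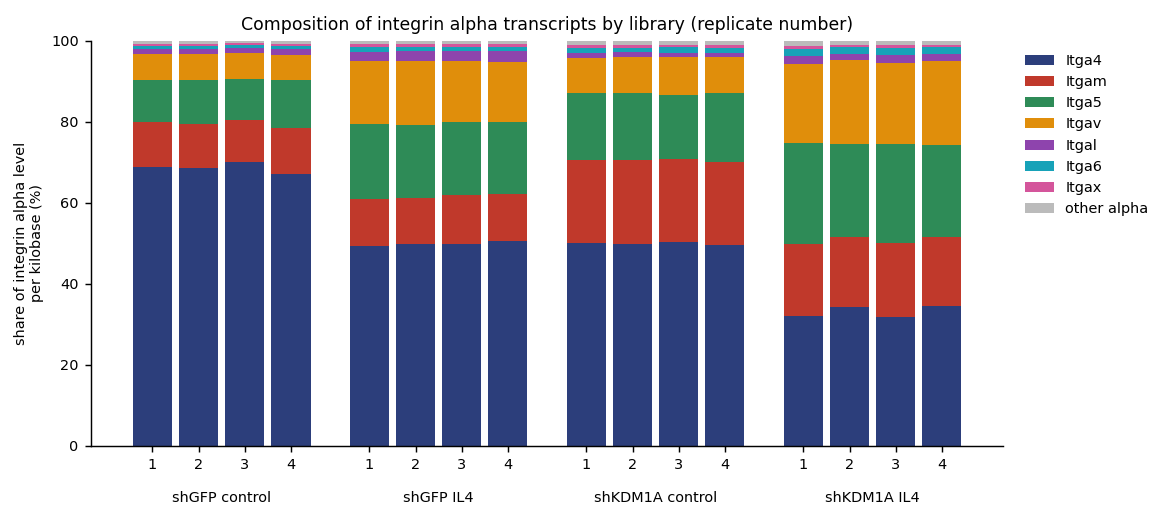
Share of the summed integrin alpha level per kilobase (vertical axis, percent) held by each alpha gene in each of the 16 libraries (bars, replicate number below, 4 groups). Itga4 takes 67.1% to 70.1% in shGFP control libraries and 31.8% to 34.5% in shKDM1A IL4 libraries, where Itga5, Itgav and Itgam fill more.

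Over 8 integrin beta genes the makeup also moved with IL4. Itgb1, Itgb2 and Itgb7 together held 86.6% ± 0.220 of the beta level in shGFP control and 74.1% ± 0.513 in shGFP IL4 cells, 91.4% ± 0.224 in shKDM1A control and 81.6% ± 0.508 in shKDM1A IL4 cells. The rest was nearly all Itgb5, a partner of Itgav in a vitronectin receptor, which went from 13.2% ± 0.216 to 25.7% ± 0.514 with IL4 in shGFP cells. Itgb5 rose by 1.11 ± 0.02 SE (log2, adjusted p = 3.2e-15) with IL4 in shGFP and by 1.13 in shKDM1A cells (adjusted p = 2.4e-15). It fell by 0.46 with the knockdown without IL4 (adjusted p = 6.3e-11) and by 0.44 with IL4. The ratio of Itgav to Itgb5 per kilobase was 0.663 ± 0.0346 and 0.676 ± 0.0371 in shGFP cells without and with IL4. It was 0.908 ± 0.0526 and 0.967 ± 0.120 in shKDM1A cells, the last being 0.867 without replicates 2 and 4 and 1.07 without 1 and 3. Itgb3, the other well-known partner of Itgav, had group means of 2.37 to 2.48 (log2) and was low.

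Of 11 other integrin alpha genes listed, 5 were tested. None of the 5 was called by limma for IL4 in shGFP cells, beside 13.1% of all genes higher and 13.7% lower, or in shKDM1A cells, beside 13.6% and 13.5%, and at an unadjusted p under 0.05 it was 1 in each line, Itga7. For the knockdown without IL4 1 was higher and 1 lower, beside 19.7% and 18.4% of all genes, and with IL4 1 was higher, beside 20.9%. With 5 genes nothing is read from these shares about the list. Itga7, a laminin-binding chain with group means of 6.50 to 6.81, was the most abundant of them. It was higher in shKDM1A cells by 0.22 without IL4 (adjusted p = 0.00012) and by 0.23 with it (adjusted p = 8.2e-05). Without shKDM1A IL4 replicates 1 and 3, Itga7 was called lower with IL4 in shKDM1A cells (-0.12, adjusted p = 0.026). Itga10 was lower with the knockdown without IL4, at -0.08 (adjusted p = 0.038).

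Genes that switch integrins on from inside the cell or bind their tails (talin, kindlin and the like) were called in either direction. With IL4 in shGFP cells 6 of 16 tested were higher and 5 lower, where 13.1% and 13.7% of all genes were. With the knockdown without IL4 7 were higher and 4 lower, beside 19.7% and 18.4% of all genes. In shKDM1A cells IL4 raised 4 and lowered 2 (13.6% and 13.5% of all genes), and the knockdown with IL4 raised 5 and lowered 3 (20.9% and 19.8%). Without replicates 2 and 4 of shKDM1A IL4 these counts were 3 and 3 for IL4 and 6 and 4 for the knockdown, and without 1 and 3 they were 5 and 2, and 5 and 3. The calls over all genes moved too. For IL4 in shKDM1A cells they went from 3497 to 3863 without replicates 2 and 4 and 2774 without 1 and 3. For the knockdown with IL4 they went from 5255 to 5317 and 4075. Several of the list's shares lie near those of all genes, and nothing is read from them about the list. Cd81, a tetraspanin that associates with integrins, fell by 0.62 ± 0.04 SE (log2) with the knockdown without IL4 (adjusted p = 3.8e-09). The median log2 fold change of this list was 0.02 for IL4 in shGFP cells and 0.07 for the knockdown without IL4, beside 0.00 over all genes.

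Among 30 tested genes of the adhesion complex and its signalling, 9 were higher and 4 lower with IL4 in shGFP cells, and 11 and 6 in shKDM1A cells, beside 13.1% and 13.7%, and 13.6% and 13.5%, of all genes. The knockdown raised 12 and lowered 7 without IL4 (19.7% and 18.4% of all genes) and raised 12 and lowered 8 with it (20.9% and 19.8%). Without replicates 2 and 4 of shKDM1A IL4, IL4 raised 10 and lowered 7 in shKDM1A cells, and the knockdown with IL4 raised 10 and lowered 9. Without 1 and 3 these counts were 9 and 5, and 11 and 7. The calls over all genes in these fits are those given for the list above. The share lowered by IL4 in shGFP cells stood near that of all genes. Actn1, which crosslinks actin at adhesions, rose by 0.59 ± 0.04 SE (log2) with IL4 in shGFP cells (adjusted p = 4.7e-09) and by 0.37 in shKDM1A cells. That difference of -0.22 ± 0.05 SE was called (adjusted p = 0.026). The call was lost without replicates 1 and 3 of shKDM1A IL4, where the interaction was called for 348 of all genes and for none of this list. With IL4 in both lines Actn1 was higher in shKDM1A cells by 0.13 (adjusted p = 0.013). It was higher by 0.07 without replicates 2 and 4 of shKDM1A IL4 (adjusted p = 0.19) and by 0.18 without 1 and 3 (adjusted p = 0.00077). Zyx, the adhesion protein zyxin, fell by 0.67 ± 0.04 SE with the knockdown without IL4 (adjusted p = 1e-09), whereas Tns3, a tensin that binds beta tails, rose by 0.58 ± 0.04 SE (adjusted p = 9.8e-09). Arhgef7, a guanine nucleotide exchange factor found at adhesions, fell by 0.51 with IL4 in shGFP cells (adjusted p = 7e-10) and rose by 0.33 with the knockdown without IL4 (adjusted p = 9.9e-08). The median log2 fold changes of this list lay between -0.02 and 0.04 over the 5 comparisons.

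Of 28 ligand genes 13 were tested in these cells. IL4 raised 4 and lowered 2 in shGFP cells, beside 13.1% and 13.7% of all genes, and the knockdown without IL4 raised 5 and lowered 1, beside 19.7% and 18.4%. C3, the complement component whose fragment is bound by Itgam and Itgax with Itgb2, had group means of 6.33, 7.10, 6.18 and 6.52 in shGFP control, shGFP IL4, shKDM1A control and shKDM1A IL4. It rose by 0.78 ± 0.04 SE with IL4 in shGFP cells and by 0.34 in shKDM1A cells, and that difference of -0.44 ± 0.06 SE was called (adjusted p = 0.00057), as it was without replicates 2 and 4 of shKDM1A IL4 (-0.43, adjusted p = 0.0022) and without 1 and 3 (-0.44, 0.0043). Spp1, which encodes osteopontin, a ligand of Itgav and Itga4 receptors, was very abundant, with group means of 15.15, 14.90, 15.72 and 15.64 in the same order. It was higher in shKDM1A cells by 0.56 without (adjusted p = 9.2e-12) and 0.74 with IL4 (adjusted p = 3.8e-13). Lamc1, a laminin chain, was higher in shKDM1A cells by 0.66 ± 0.06 SE with IL4 (adjusted p = 2.7e-07), by 0.54 without replicates 2 and 4 and by 0.79 without 1 and 3.

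Macrophage markers moved too, which stands beside the member results. With IL4 in shGFP cells 3 of 11 tested were higher and 5 lower, beside 13.1% and 13.7% of all genes, and with the knockdown without IL4 5 were higher and 4 lower, beside 19.7% and 18.4%. Adgre1 rose by 1.24 ± 0.04 SE and Cd14 fell by 0.93 ± 0.02 SE with IL4 in shGFP cells. The interaction was called higher for 3 and lower for 1 of the 11, beside 3.56% and 2.57% of all genes. It was 0.48 for Cd14 (adjusted p = 2.8e-07), 0.42 for Lyz2 (2.9e-05) and -0.33 for Adgre1 (0.0012). Without replicates 2 and 4 of shKDM1A IL4 these counts were 6 and 2, and without 1 and 3 they were 3 and 1. In these fits 2282 and 348 of all genes were called. Siglec1 rose by 1.38 ± 0.05 SE with the knockdown without IL4, and Lyz2 was higher by 0.68 ± 0.03 SE in shKDM1A than in shGFP cells with IL4 (0.74 without replicates 2 and 4 and 0.62 without 1 and 3). The summed log2 level of the marker list was 17.70 to 17.76 in shGFP control, 17.38 to 17.40 in shGFP IL4, 17.89 to 17.92 in shKDM1A control and 17.79 to 17.89 in shKDM1A IL4 libraries, and its part in the integrin results was not tested.

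For the 3 members with the widest span of group means, the genes with the most alike pattern were listed by Pearson's r over the 16 libraries, among 775 tested genes whose group means spanned at least 0.5. Itga4 spanned 1.52 and was most like Hpgds (r = 0.991), Cd33 (0.990) and Ttc39b (0.982). Itgal spanned 1.47 and was most like Inpp5d (0.989), Tbc1d16 (0.989) and Abcd2 (0.985). Itgav spanned 1.22 and was most like B4galt1 (0.988), Capn5 (0.985) and Slc43a2 (0.985). These values describe the pattern over 4 groups of 4 libraries, which the genes share, and carry no p-value. Itgb1, by contrast, spanned 0.05, at percentile 14.9 of all genes tested.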

How the data were processed

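RNA-seq of 16 RAW264.7 libraries in 4 groups of 4 was analysed. Per the study's methods, the authors mapped reads to mm9 with HISAT2 and Bowtie2 and analysed RNA-seq in HOMER. The command line in the header of the deposited table adds that tags were counted on exons on both strands and that isoforms were merged into 1 entry a gene. The same header names DESeq2 for the comparison step, and versions are not given in the sources used here. The deposited score per gene and library is a normalised value on a log2 scale, moderated for low counts, with decimal commas. It is not a count, so no count model was fitted. The table of BMDMs and further columns of this table hold log2 fold changes and p-values of the authors' own comparisons, which were not used. The other samples of the 203 in the series were not analysed here.

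A gene was kept when 4 or more libraries had a value of 1 or more (12905 genes), since 8488 rows had the same value in all libraries. They were fitted in R 4.3.3 with limma 3.58.1 as 1 model of group means with 5 contrasts and Benjamini-Hochberg adjustment per contrast, and a call is an adjusted p under 0.05. The planned pseudocount was not added, as the values are already logarithms. Levels per kilobase are 2 to the power of the value, divided by the transcript length listed in the table. Shares were compared with exact permutation tests (scipy 1.17.1). Totals of 17554721 to 27782568 tags per library limit precision for low genes. Words of 50 bases were compared between transcripts of the mm9 annotation. The alternatives tried were other filters, fits of only 2 groups, a replicate block, a trended prior variance, median centring or quantile normalization of the libraries, a limit on fold change, leaving out each library and, chosen after seeing the data, leaving out pairs of shKDM1A IL4 libraries. Comparisons of 2 groups share libraries and are not independent.

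Named were all 10 members. From the lists of related genes and markers, those called with an absolute log2 fold change over 0.5 were named, at most 4 a list, and for the 3 members of widest span the 3 most alike genes. Markers named by their level (Csf1r, Mertk, Cd163, Flt3 and Zbtb46), Itga7, Itga10, Itgb3, and the genes sharing sequence with members were named after their values were seen. The members and lists were chosen with earlier results of these data known.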

Additional observations from a re-analysis of the deposited data

Results flagged for a closer look

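Itga5 in shGFP IL4 cells had 1 library apart from the rest: replicate 4 was 11.70, while the other 3 lay at 11.77, a gap that made up 0.980 of the group's range. The range itself was under 0.1, and Itga5 stayed higher with IL4 when this library was left out. It was 1 such library in 40 groups of 4 looked at, and chance gives about 1 in 20.

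The response to IL4 differed between shGFP and shKDM1A cells by the interaction test of limma for Itgb7 (-0.31, adjusted p = 0.0019), Itgax (-0.25, adjusted p = 0.0065) and Itgam (-0.16, adjusted p = 0.043), in log2 units as shKDM1A minus shGFP. Itgam's difference kept its sign in all alternatives run and lost its call in several, which are given with the processing alternatives.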

How the results depend on the processing

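No called member change turned its direction: of 569 refits of the 34 called changes, 555 kept the call and 14 lost it, and those 14 were all the interaction of Itgam. Its adjusted p was 0.11 with no filter and 0.18 without shKDM1A IL4 replicates 1 and 3, and it lost the call in 12 of 16 fits that left out 1 library (-0.13 to -0.19 over all 16). With an absolute log2 fold change over 0.5 also required, the members called fell from 7 to 5 for IL4 in shGFP cells, from 9 to 4 for IL4 in shKDM1A cells, from 8 to 3 for the knockdown without IL4, from 7 to 4 with IL4, and from 3 to 0 for the interaction. The share of all genes past that limit was not counted. For IL4 in shGFP cells, the absolute change of Itgax, 0.54, stood at percentile 98.9 of all genes tested. Only uncalled values changed sign. Itgb1 for IL4 in shKDM1A cells was 0.00798 with median centring, 0.0184 without shKDM1A IL4 replicates 1 and 3, and -0.0131 to 0.0108 leaving out 1 library. Itgb1 for the knockdown without IL4 was -0.0177 with quantile normalization and -0.0068 to 0.00991 leaving out 1 library. For Itgav it was -0.0449 to 0.0250. Without shKDM1A IL4 replicates 2 and 4, Itgav was -0.0589 for the knockdown with IL4 and -0.0488 for the interaction, and Itga4 was -0.112 for the interaction. Leaving out 1 library gave -0.0159 to 0.0934 for Itga4 and -0.0247 to 0.0700 for Itga6 in the interaction. Itgb1 became called for the knockdown with IL4 at -0.10 with quantile normalization (adjusted p = 0.003) and at -0.07 without shGFP IL4 replicate 1 (adjusted p = 0.035). The cause was not tested. Without division by length, Itgal, Itga6 and Itgb7 ranked 7, 8 and 9 in shGFP control cells, and Itga4 held 80.9%, 64.7%, 66.1% and 47.8% of the alpha level in the 4 groups. Of 24 same-number pairs of libraries from different groups, 3 had deviations correlated over 0.1. The median correlation of same-number pairs was 0.045 (-0.343 to 0.273), beside -0.0095 for pairs of other numbers. The labels do not settle whether libraries of the same number belong together. With the replicate block the members called were unchanged in number in all 5 comparisons (7, 9, 8, 7 and 3), and 3430 in place of 3466 genes were called for IL4 in shGFP cells. Centring and quantile normalization moved the share of higher calls by under 10 points. Low genes are limited by the moderation of the deposited values.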
